A study of Homo sapiens with 18 samples.

Results

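The keratin genes were taken as the array's probe sets whose single gene symbol is KRT followed by a number and at most 1 letter, with keratin-associated proteins and pseudogenes left out. The brightest probe set stood for each symbol. This gave 48 keratin genes of 18377 genes measured, 28 of type I and 20 of type II. A further 7 keratins (KRT17, KRT6A, KRT6B, KRT6C, KRT81, KRT82 and KRT86) were not analysed here.

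Expression was measured on 18 Affymetrix whole-transcript arrays of A549, an established line of human lung adenocarcinoma cells with an epithelial origin. The cells carried either a control siRNA (siControl) or siRNA against the atypical protein kinases C iota and zeta together (siPKCiz). In each arm, serum-starved cells were left without TGFβ or were given 250 pM TGFβ for 1 h, washed, and kept in medium with 0.2% serum for another 7 or 23 h, so that RNA was taken 8 or 24 h after the start. TGFβ is a growth factor that drives many epithelial cells toward a mesenchymal state, and the atypical protein kinases C act in epithelial polarity. The 6 groups were siControl untreated, siControl 8 h, siControl 24 h, siPKCiz untreated, siPKCiz 8 h and siPKCiz 24 h, with 3 biological replicates each. All groups share the 1 cell line, the serum starvation and a transfected siRNA. The labels give no collection time for the untreated arrays, and both TGFβ times of an arm were compared with the same 3 untreated arrays.

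Keratins are the intermediate filament proteins of epithelial cells. A type I (acidic) and a type II (basic) keratin join as an obligate pair, and these pairs build filaments that are anchored at desmosomes between cells and at hemidesmosomes toward the matrix. Simple epithelia such as the lung lining use KRT8 with KRT18, along with KRT7 and KRT19, while stratified skin, hair and the inner root sheath use other pairs. Vimentin is the intermediate filament of mesenchymal cells, and a shift from keratins to vimentin is a textbook feature of the epithelial to mesenchymal transition.

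The deposited values are array intensities on a linear scale, with array medians between 156 and 161, and were analysed as log2 values. Each change below is a difference of group means in log2 ± SE from a limma fit over all 18 arrays (n = 3 arrays a group), and a gene was called when its Benjamini-Hochberg adjusted p over all 18377 genes was below 0.05. On the mean of the 3 conditions, PRKCI differed by -2.24 ± 0.052 in log2 (SE) in siPKCiz, 4.73-fold lower, with limma's adjusted p = 1.98e-15: its intensity was 2095 to 2818 in siControl and 457 to 621 in siPKCiz. PRKCZ was 2.10-fold lower (adjusted p = 3.43e-05 by limma). Of the epithelial markers, 2 of 5 measured lay above the array median on every array, and the list's mean log2 intensity per array was 7.68 to 8.05 in untreated siControl and 7.49 to 7.62 at 24 h. Of the alveolar type 2 markers, ABCA3 alone of 7 lay above the median on every array, and the surfactant genes SFTPB and SFTPC and the lineage factor NKX2-1 had mean log2 levels of 6.69, 6.51 and 6.08, below all array medians (7.29 to 7.33). The surfactant gene SFTPD lay near them at 7.34. No marker of fibroblasts (6 measured), endothelium (5) or basal and squamous cells (4) was above the array median on all arrays, and 1 of 5 leukocyte markers, CD68, was. In RNA from whole cultures, fewer cells of a type and less RNA per cell cannot be told apart.

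Most keratins gave dim signals in A549. KRT7, KRT8, KRT10, KRT13, KRT18, KRT19, KRT80 and KRT83 lay above the array median on all 18 arrays, 8 of 48. Another 8 were above it on some arrays, KRT4 on 15 of them, and 32 were above it on none. These 32 had mean log2 intensities of 5.68 to 6.90, against array medians of 7.29 to 7.33, and the largest spread between their 6 group means was 0.37. By family, 4 of 13 type I epithelial keratins and 3 of 12 type II epithelial keratins were above the median throughout. None of the 11 type I hair keratins, the 4 type I and 5 type II inner root sheath keratins was, and 1 of the 3 type II hair keratins measured, KRT83, was. KRT83 is nearly identical in sequence to KRT81 and KRT86, and KRT8 and KRT18 have many processed pseudogenes, so that signal of these probe sets may be shared with other loci.

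Across all 11 comparisons, 4 keratins were called at least once (KRT19, KRT7, KRT4 and KRT34) and 44 were never called. With 8 h of TGFβ in siControl, 1 keratin rose and 1 fell, where 11.4% of all genes were called, 5.17% higher and 6.18% lower. At 24 h none rose and 1 fell, where 12.3% of all genes were called, 5.85% higher and 6.46% lower. In siPKCiz 2 keratins rose and 1 fell at 8 h, where 6.48% of all genes were called, 3.13% higher and 3.35% lower. At 24 h none rose and 2 fell, where 10.7% of all genes were called, 4.65% higher and 6.09% lower. The shares of keratins called, 4.17%, 2.08%, 6.25% and 4.17% in that order, did not exceed those of all genes. Most of the 48 are dim, and a filter on dim genes, used below as an alternative, kept 12 of them. These shares therefore do not describe the bright keratins alone. The median change of the 48 keratins was -0.00, -0.01, 0.06 and 0.08 in log2, beside 0.00, -0.01, -0.00 and -0.01 for all genes. Both comparisons of an arm share their untreated arrays, so their counts are not separate observations.

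**Figure D1:**
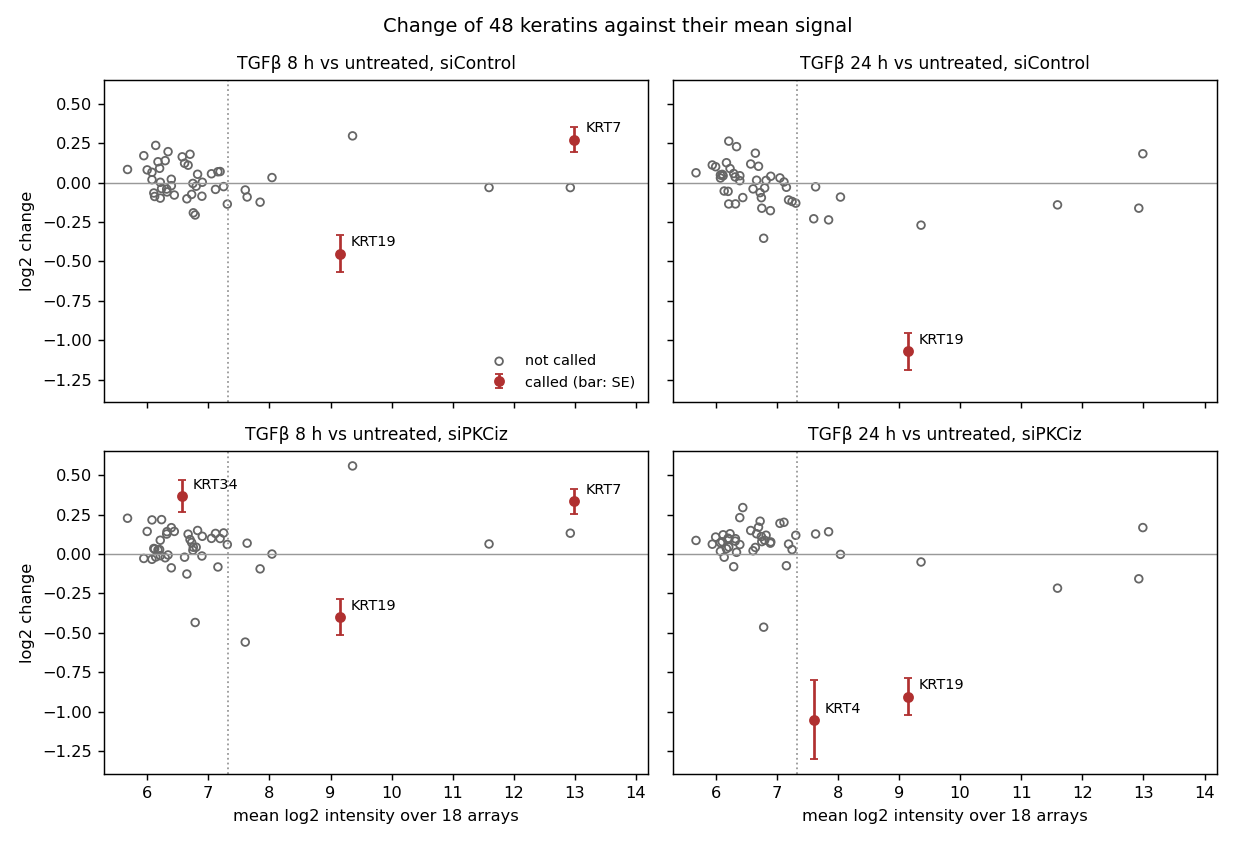
Change of each of the 48 keratin genes with TGFβ (vertical axis, log2) against its mean log2 intensity over the 18 arrays (horizontal axis), in 4 panels for the 8 h and 24 h comparisons of siControl and siPKCiz; filled red points are called genes with their SE as a bar, and the dotted line is the array median. Most keratins sit left of the line and near 0, and KRT19 is the lowest point at 24 h in siControl at -1.07.

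KRT19, the smallest type I keratin and one that lacks most of the usual tail, fell with TGFβ in both arms. In siControl its intensity was 747, 727 and 754 in the untreated arrays, 575, 582 and 478 at 8 h, and 376, 355 and 330.1 at 24 h. All 3 groups were apart from each other, with the untreated arrays highest and the 24 h arrays lowest. The fall was 0.45 ± 0.12 in log2 at 8 h (1.37-fold, adjusted p = 0.0141 by limma) and 1.07 ± 0.12 at 24 h (2.10-fold, adjusted p = 5.41e-06). From 8 to 24 h it fell by 0.62 ± 0.12 (1.54-fold, adjusted p = 0.00683), the single keratin called in that comparison, where 2.41% of all genes were called, 1.1% lower. Ranked by size among the 18377 genes, its fall was number 695 at 8 h and number 100 at 24 h.

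In siPKCiz KRT19 intensity was 859, 878 and 778 untreated, 659.5, 709 and 548 at 8 h, and 370.0, 506 and 477 at 24 h. The groups again did not overlap, and the order of the times was that of siControl. The fall was 0.40 ± 0.12 in log2 at 8 h (1.32-fold, adjusted p = 0.0455 by limma) and 0.90 ± 0.12 at 24 h (1.87-fold, adjusted p = 3.83e-05). A contrast of 24 h against 8 h in siPKCiz, added after seeing the data, gave -0.51 ± 0.12 (adjusted p = 0.0476 by limma, with 0.805% of all genes called). The difference between the arms in the 24 h change was 0.17 in log2, with a 95% interval of -0.18 to 0.51, and in the 8 h change 0.05, with an interval of -0.29 to 0.40. Neither was called, and no gene of the 18377 was called in either interaction (0% of all genes). Without replicate 1 of every group, 58 genes were called in the 8 h interaction and 80 in the 24 h interaction, and 3 in the latter without siControl 24 h replicate 1, none of them a keratin. With all arrays, at an unadjusted p under 0.05 limma gave no keratin at 8 h and 2, KRT4 and KRT83, at 24 h.

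The falls at 24 h kept their call in every leave-one-out fit, between -1.12 and -1.01 in siControl, and with the smallest change at -0.75 in siPKCiz. The 8 h calls were lost in several of these fits, each of which has fewer arrays to test with. In siControl the 8 h call was lost without 8 h replicate 3 (-0.36, adjusted p = 0.0839 by limma), and in siPKCiz without any of the 3 untreated arrays or without 8 h replicate 1 or 3, with adjusted p of 0.0600 to 0.194 by limma. Leaving out all arrays of 1 replicate number ended the siControl 8 h call for numbers 2 and 3, the siPKCiz 8 h call for each number, and the 24 h against 8 h call in siControl for numbers 2 and 3 (adjusted p = 0.240 and 0.0890 by limma).

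**Figure D2:**
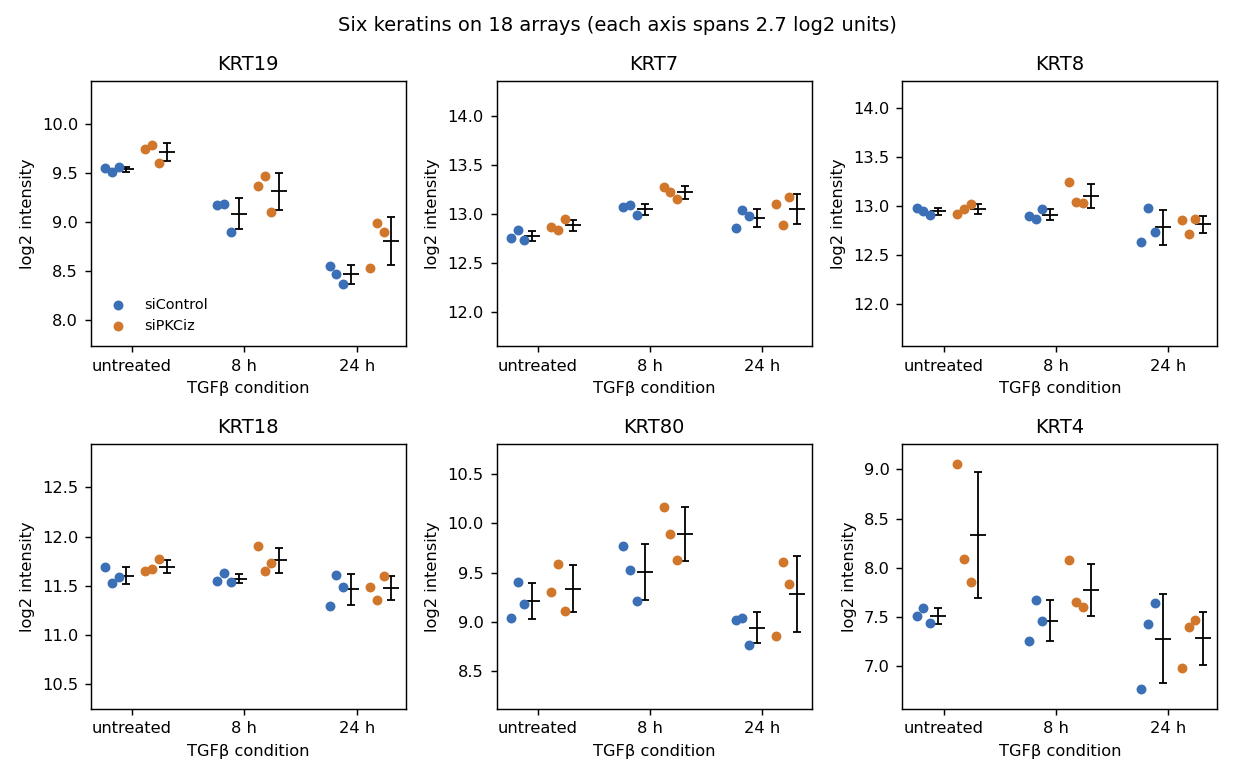
Log2 intensity of KRT19, KRT7, KRT8, KRT18, KRT80 and KRT4 on each of the 18 arrays (points, vertical axis) in the 6 groups (horizontal axis), with the mean and SD of each group of 3; every panel spans the same number of log2 units. KRT19 steps down from untreated to 8 h to 24 h in both arms, KRT7 is highest at 8 h, and siPKCiz untreated replicate 1 stands above all other arrays for KRT4.

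KRT7, the type II keratin that marks simple glandular and lung epithelium, rose at 8 h in both arms. In siControl its intensity was 6918, 7292 and 6842 untreated, 8589.8, 8711 and 8117 at 8 h, and 7443, 8398 and 8069 at 24 h. The 8 h arrays all lay above the untreated arrays, and the 24 h arrays did as well but overlapped with those of 8 h. The rise at 8 h was 0.27 ± 0.080 in log2 (1.21-fold, adjusted p = 0.0320 by limma). The 24 h difference of 0.18 was not called (adjusted p = 0.165 by limma, 95% interval 0.02 to 0.35).

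In siPKCiz KRT7 intensity was 7496, 7302 and 7886 untreated, 9938, 9578 and 9117 at 8 h, and 8783, 7563 and 9212 at 24 h. The 8 h arrays again stood above the untreated ones, and 24 h replicate 2 lay within the untreated range. The rise at 8 h was 0.34 ± 0.080 (1.26-fold, adjusted p = 0.0136 by limma), and the 24 h difference of 0.17 was not called (adjusted p = 0.209). Thus KRT7 and KRT19, both keratins of simple epithelia, were called in opposite directions at 8 h in each arm. The siControl call was lost with the replicate number as a block (adjusted p = 0.0607 by limma) and without untreated replicate 1 or 3 or 8 h replicate 1 or 2 (0.0803 to 0.104). The siPKCiz call was lost without untreated replicate 1 or 2 or 8 h replicate 1 (0.0548 to 0.0744). Both were also lost without any 1 replicate number.

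KRT8 and KRT18, the type II and type I partners of the basic filament of simple epithelia, were bright and were not called in any comparison. KRT8 intensity in siControl was 8079, 7901 and 7720.1 untreated, 7638, 7501 and 8046 at 8 h, and 6346, 8079 and 6852 at 24 h. In siPKCiz it was 7759, 8043 and 8320.2 untreated, 9707, 8416 and 8368 at 8 h, and 7450.4, 6719.8 and 7479.9 at 24 h. The siControl groups overlapped at both times, while in siPKCiz all 8 h arrays lay above and all 24 h arrays below the untreated ones. The KRT8 difference at 24 h was -0.16 in log2 in siControl (95% interval -0.35 to 0.02) and -0.16 in siPKCiz (-0.34 to 0.03).

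KRT18 intensity in siControl was 3312, 2944 and 3083 untreated, 2996, 3156 and 2976 at 8 h, and 2504, 3114 and 2869.9 at 24 h. In siPKCiz it was 3206, 3250.4 and 3484 untreated, 3822, 3202 and 3389 at 8 h, and 2859, 2610.1 and 3102 at 24 h. The treated groups overlapped with the untreated ones except at 24 h in siPKCiz, where all 3 arrays lay below the untreated ones. That difference was -0.22 ± 0.092 (adjusted p = 0.155 by limma, 95% interval -0.41 to -0.02), and in siControl it was -0.14 (-0.34 to 0.05). The pair shared its extremes: siControl 24 h replicate 1 was the lowest of all 18 arrays for both genes, and siPKCiz 8 h replicate 1 was the highest for both. A second KRT18 probe set, not used above, was not called in any comparison either.

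KRT4, the type II keratin of the suprabasal layers of mucosal stratified epithelia, fell at 24 h in siPKCiz. Its intensity there was 533, 273 and 231 untreated, 270.0, 200.2 and 194 at 8 h, and 126, 169 and 177 at 24 h. Untreated replicate 1 was far above the others, and the 24 h arrays all lay below the untreated ones. The fall was 1.05 ± 0.25 in log2 (2.07-fold, adjusted p = 0.00924 by limma). Without untreated replicate 1 it was 0.69 lower with adjusted p = 0.0582 by limma, and without 24 h replicate 1 it was 0.90 lower with adjusted p = 0.0628, so that the call was lost in both cases, as it was without replicate 2 of every group (-1.23, adjusted p = 0.0807). The same untreated array was also the highest of all 18 for KRT20, a type I keratin of gut epithelium that was not called and is named after its values were seen, at 215 against 110.0 and 113 in the other untreated siPKCiz arrays.

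In siControl KRT4 intensity was 181, 192 and 173 untreated, 152, 204 and 176 at 8 h, and 109, 172 and 199 at 24 h. These groups overlapped, and the 24 h difference was -0.23 ± 0.25 (adjusted p = 0.659 by limma). The difference between arms in the 24 h change was -0.82 ± 0.35 (95% interval -1.56 to -0.08) with adjusted p = 1.00, so an effect of the silencing on the KRT4 response was not shown. In untreated cells KRT4 was higher in siPKCiz on all 3 arrays, by 0.83 ± 0.25, without a call (adjusted p = 0.0779 by limma). That difference was called without siPKCiz untreated replicate 3 (1.07, adjusted p = 0.0447 by limma) and without replicate 1 of every group (0.46, adjusted p = 0.0148).

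KRT34, a type I hair keratin, rose at 8 h in siPKCiz from 78, 89.8 and 89.2 untreated to 112, 115 and 104, and stood at 94, 111 and 81.9 at 24 h. The 8 h arrays lay above the untreated ones, and 24 h overlapped with both. The rise was 0.37 ± 0.10 in log2 (1.29-fold, adjusted p = 0.0341 by limma). In siControl KRT34 read 90.6, 86.1 and 88.3 untreated, 109, 96.1 and 91.9 at 8 h, and 91.7, 91.7 and 104 at 24 h, with an 8 h difference of 0.16 that was not called (adjusted p = 0.378). All these values lie below the array medians, and the siPKCiz call was lost without any of the 3 untreated arrays, without 8 h replicate 1 or 2 (adjusted p of 0.0514 to 0.179 by limma) without any 1 replicate number, or with the replicate number as a block (0.0564).

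KRT80, a type II keratin near desmosomes of maturing epithelial cells, had the largest uncalled rise with TGFβ and is named after its values were seen. Its siPKCiz intensity was 553 to 769 untreated, 789.6 to 1148 at 8 h and 463 to 783 at 24 h. The 8 h arrays lay above the untreated ones, with a difference of 0.56 ± 0.18 (adjusted p = 0.0836 by limma) that was called without 8 h replicate 3 (0.69, adjusted p = 0.0488). In siControl it was 527 to 677 untreated, 594 to 876 at 8 h and 434 to 525 at 24 h, a difference of 0.30 at 8 h (adjusted p = 0.378). The remaining bright keratins, also named after their values were seen, were not called. Over all 18 arrays KRT10 was 237 to 307, KRT13 was 171 to 224 and KRT83 was 195 to 316. In siControl KRT83 read 235, 264 and 265 untreated and 218, 210 and 219 at 24 h, all below the untreated arrays. In siPKCiz it read 195, 266 and 218 untreated and 316, 221 and 217 at 24 h, which overlapped.

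Comparing siPKCiz with siControl directly, no keratin was called in untreated cells (3.58% of all genes called), at 8 h (5.41%) or at 24 h (3.19%). These all-gene shares moved with single arrays. The 657 genes called in untreated cells became 240 without siPKCiz untreated replicate 2. The 995 at 8 h became 363 without siPKCiz 8 h replicate 3 and 1271 without siControl 8 h replicate 1. The 587 at 24 h became 195 without siPKCiz 24 h replicate 2 and 807 without siControl 24 h replicate 1. With 1 replicate number left out, the counts ran from 27 to 1513 untreated, 24 to 3486 at 8 h and 18 to 2078 at 24 h. With all arrays, limma gave 2 keratins at an unadjusted p under 0.05 in untreated cells (KRT4 and KRT71). It gave 3 at 8 h (KRT7, KRT8 and KRT80) and 3 at 24 h (KRT19, KRT25 and KRT85). On the mean of the 3 conditions 1 keratin, KRT19, was called higher, where 19.9% of all genes were called. KRT19 was higher by 0.25 ± 0.067 in log2 (1.19-fold, adjusted p = 0.0137 by limma), with differences of 0.17, 0.23 and 0.34 in untreated cells, at 8 h and at 24 h that were not called singly (adjusted p = 0.468, 0.271 and 0.133). Comparing arrays of the same condition and replicate number, KRT19 was higher in siPKCiz in 8 of 9, at 98.4% to 145% of siControl. The labels state no pairing of these arrays. KRT7, which was not called, was also higher in 8 of 9. KRT8, KRT18, KRT34 and KRT80 were higher in 7 of 9 and KRT4 in 6 of 9. The KRT19 call was lost when replicate 2 was left out of every group (0.19, adjusted p = 0.242 by limma) or replicate 3 (0.24, adjusted p = 0.102). The 24 h difference of KRT19 was called without siPKCiz 24 h replicate 1 (0.48, adjusted p = 0.0207 by limma). KRT7 was higher by 0.12 ± 0.046 on the same mean (adjusted p = 0.0658), KRT8 by 0.08 and KRT18 by 0.10, and none of these was called. The median keratin difference was -0.03, against -0.01 for all genes.

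**Figure D3:**
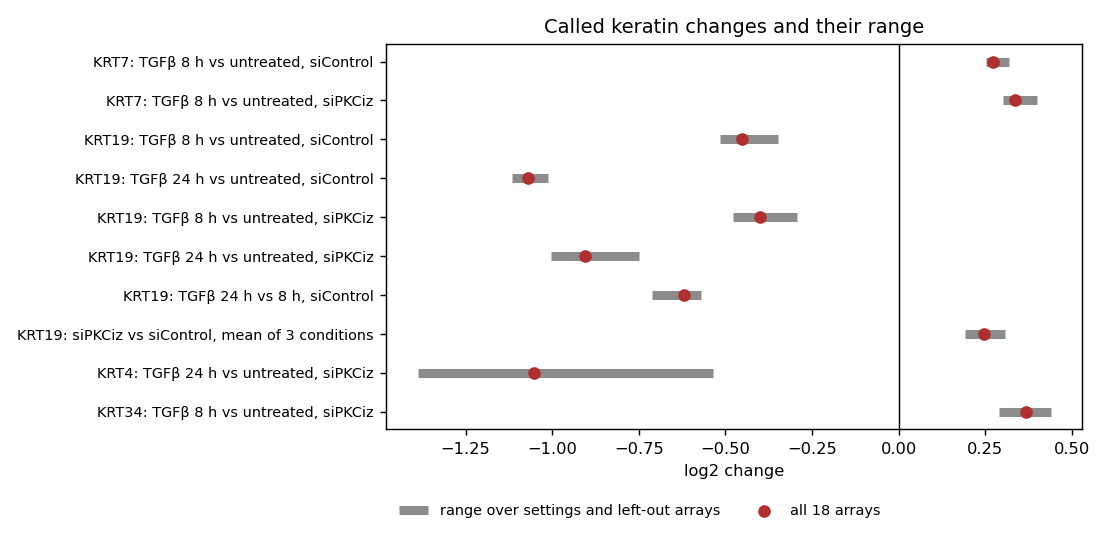
The 10 keratin changes called, as log2 change (point, horizontal axis) with the range of the same change over the processing alternatives and left-out arrays (line), 1 row per gene and comparison. No line crosses 0, and the widest is that of KRT4 at 24 h in siPKCiz, from -1.39 to -0.54.

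The called keratins are not neighbours of each other in the genome. In the RefSeq gene order, 27 of the 48 members lie on chromosome 17 and 21 on chromosome 12, the type I gene KRT18 being on 12 beside KRT8. KRT19 stands between KRT15 and KRT9, KRT7 between KRT80 and KRT86, KRT4 between KRT3 and KRT79, and KRT34 between KRT33B and KRT31. None of the neighbours measured was called in any comparison.

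Promoter sequence from RefSeq (GRCh38.p14) was at hand for 33 of the 48 keratins, as windows of 250 bases before to 50 after the start. Of the called genes it was given for KRT4 and KRT34. Of the keratins above the median on every array it was given for KRT8 and KRT10, and not for KRT7, KRT13, KRT18, KRT19, KRT80 or KRT83. The motif shares below therefore describe mostly dim keratins. The 250 bases before the start are shown for these and for KRT8, a keratin that was bright and not called, 5′ to 3′ on the minus strand, with motif matches in capitals.
KRT4 (chr12:52814117-52814366): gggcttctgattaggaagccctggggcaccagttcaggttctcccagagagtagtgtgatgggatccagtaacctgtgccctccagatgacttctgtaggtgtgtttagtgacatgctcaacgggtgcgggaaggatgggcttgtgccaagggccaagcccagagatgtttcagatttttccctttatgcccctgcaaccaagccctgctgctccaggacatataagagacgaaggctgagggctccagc
KRT34 (chr17:41382307-41382556): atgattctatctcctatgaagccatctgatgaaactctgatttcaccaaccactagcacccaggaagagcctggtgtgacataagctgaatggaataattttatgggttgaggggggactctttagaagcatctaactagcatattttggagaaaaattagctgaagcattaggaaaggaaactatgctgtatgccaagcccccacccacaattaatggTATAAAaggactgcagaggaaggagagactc
KRT8 (chr12:52926470-52926719): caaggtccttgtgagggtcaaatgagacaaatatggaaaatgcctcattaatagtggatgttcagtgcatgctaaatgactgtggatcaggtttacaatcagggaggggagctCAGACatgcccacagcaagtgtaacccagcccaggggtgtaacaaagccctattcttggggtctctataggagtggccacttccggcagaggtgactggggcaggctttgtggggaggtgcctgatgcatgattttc
The capitals mark a TATA box (TATAAA) in KRT34 and a SMAD box (CAGAC), the short element bound by the factors that carry the TGFβ signal, in KRT8. Both strands of the 300-base windows were searched for 5 motifs, none of which contains another. TATAAA was found in 19 of the 33 keratin windows and in 3264 of all 27305 windows. CAGAC was found in 42.4% against 45.0%, the E-box CACCTG in 24.2% against 20.6%, and the GC box GGGCGG in 18.2% against 44.6%. The AP-1 site TGANTCA was in 0 of 33 keratin windows and in 7.76% of all. KRT4 held none of the 5 motifs.

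Genes for the proteins that keratin filaments attach to were called in both directions. The counts of called genes in the lists below stand beside 5.17% of all genes called higher and 6.18% lower at 8 h and 5.85% and 6.46% at 24 h in siControl, and beside 3.13% and 3.35% at 8 h and 4.65% and 6.09% at 24 h in siPKCiz. The desmosome list has 14 genes, of which the siControl arm showed 1 higher and 2 lower at 8 h and 2 higher and 1 lower at 24 h. In siPKCiz the counts were 1 higher and 1 lower at 8 h and 2 higher and 1 lower at 24 h. DSC2, a desmosomal cadherin, rose by 0.48 at 8 h and 0.77 at 24 h in siControl and by 0.58 and 0.96 in siPKCiz (adjusted p between 3.26e-06 and 0.00219 by limma). PKP2, the plakophilin that joins the cadherins to desmoplakin, fell, with changes of -0.64 and -0.57 in siControl and of -0.53 and -0.61 in the silenced arm. DSP, desmoplakin, the direct anchor of keratin filaments, fell by 0.32 at 8 h in siControl, and DSG2 rose by 0.34 at 24 h in siControl and 0.30 in siPKCiz. The median over the list was 0.06 at 8 h and 0.04 at 24 h in siControl, and 0.03 and 0.06 in siPKCiz.

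Of 9 hemidesmosome and plakin genes, siControl had 1 higher and 2 lower at 8 h (median -0.02), and 4 higher and none lower at 24 h (median 0.24), where 11.4% and 12.3% of all genes were called. In siPKCiz 3 rose and 1 fell at each time (medians 0.32 and 0.30). PLEC, plectin, which links keratins to hemidesmosomes, rose by 0.53 at 24 h in siControl and by 0.61 and 0.46 at 8 and 24 h in siPKCiz. LAMB3, a chain of the laminin under hemidesmosomes, rose by 0.65 at 24 h in siControl. CD151, a tetraspanin of hemidesmosomes, rose by 0.28 and 0.35 in siControl and by 0.32 and 0.30 in siPKCiz. MACF1, a plakin that links actin and microtubules, rose by 0.40 at 24 h in siControl and by 0.39 at 8 h and 0.55 at 24 h in siPKCiz. ITGA6, the alpha chain of the hemidesmosome integrin, fell by 0.30 at 8 h in siControl. PPL, periplakin, fell by 0.48 at 8 h in siControl, and its changes in siPKCiz were -0.57 and -0.59.

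Vimentin (VIM) rose in all 4 TGFβ comparisons, with changes of 0.50 at 8 h and 0.62 at 24 h for siControl, and of 0.39 and 0.41 for siPKCiz (adjusted p between 0.000644 and 0.0352 by limma), while KRT19 fell in the same comparisons. VIM is 1 of the list's 15 intermediate filament genes other than keratins, and was the only one that rose in each of these comparisons. In each arm 1 of the 15 fell at 8 h and 2 fell at 24 h. Of all genes, 11.4% (8 h) and 12.3% (24 h) were called in siControl and 6.48% and 10.7% in siPKCiz. The genes that fell were BFSP1, a lens filament protein, with changes of -0.64 and -0.46 in siControl and of -0.52 and -0.30 in siPKCiz, and at 24 h INA, a neuronal filament protein, with changes of -0.47 and -0.33. The list's median ran from -0.08 to 0.05 over the 4 comparisons. Of 14 keratin-binding and filament-regulating genes, none was called in siControl. In siPKCiz SFN, the 14-3-3 sigma protein, rose by 0.49 at 8 h and AHNAK by 0.27 at 24 h. Of 25 genes of the cornified envelope, LORICRIN rose by 0.24 at 8 h and SPRR3 fell by 0.30 at 24 h in siControl, and none was called in siPKCiz. LORICRIN and SPRR3 were dim, with highest log2 values of 6.75 and 6.44, below all array medians.

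Transcription factors that act on keratin genes were mostly lower among those called. Of 30 measured, 2 were higher and 10 lower at 8 h in siControl, and none higher and 10 lower at 24 h, beside 6.18% and 6.46% of all genes called lower. In siPKCiz 1 was higher and 8 lower at 8 h, and none higher and 13 lower at 24 h, beside 3.35% and 6.09%. The median over this list was -0.09 at 8 h and -0.14 at 24 h in siControl, and -0.17 and -0.15 in siPKCiz. SOX2, a stem and lineage factor of airway epithelium, fell in all 4 comparisons, with changes of -2.12 at 8 h and -1.40 at 24 h in siControl, and of -1.67 and -1.34 in siPKCiz. EHF, an epithelial ETS factor, fell likewise, with changes of -1.48, -1.40, -1.51 and -1.52 in that order. GRHL3, a grainyhead factor of epithelial barriers, had changes of -1.23, -1.37, -0.77 and -1.01. TFAP2C, an AP-2 factor known to act on keratin promoters, fell in siControl (-1.31 and -1.44) and at 24 h in siPKCiz (-1.07), and its 8 h value in siPKCiz was -0.57 without a call (adjusted p = 0.0596 by limma). FOXA2, a factor of lung endoderm, fell in all 4 comparisons, with changes of -0.84 and -0.65 in siControl and of -0.75 and -0.54 in siPKCiz. Of the epithelial markers, CDH1 (E-cadherin) fell, with changes of -0.96 and -1.62 in siControl and of -0.77 and -1.37 in siPKCiz, and CLDN4, a claudin, rose by 1.54, 1.25, 1.01 and 0.98. ESRP2 rose by 0.31 at 8 h and EPCAM fell by 1.23 at 24 h in siControl. Of the fibroblast markers LUM rose by 1.28 at 24 h in siControl, with the list's mean log2 intensity per array at 6.42 to 6.54 untreated and 6.75 to 6.84 at 24 h. In siPKCiz that list stood at 6.51 to 6.63 untreated and 6.91 to 7.01 at 24 h, with LUM up by 0.84 and PDGFRA by 0.67. Of the other marker lists, CD14 (leukocyte) fell in all 4 comparisons (-0.66, -0.66, -0.60 and -0.56), TEK (endothelial) rose by 0.36 and 0.22 in siControl and by 0.25 at 24 h in siPKCiz, and ABCA3 fell by 0.31 at 8 h in siControl. None of the 4 basal and squamous markers was called. The part of other cell types in these results was not tested.

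On the mean of the 3 conditions, silencing of the atypical kinases went with called rises in each of these lists but the cornified envelope. In siPKCiz 5 desmosome genes were higher and 1 lower, 3 hemidesmosome and plakin genes were higher, 4 other intermediate filament genes, 5 keratin-binding genes and 11 keratin transcription factors were higher, and none of these other lists held a lower one. The desmosome gene called lower was DSC2 (-0.26). These counts stand beside 11.8% of all genes called higher and 8.17% called lower. Examples were DSC3 (0.43), PKP3 (0.38), DSP (0.38) and PKP2 (0.36) among desmosome genes, DST (0.54), PPL (0.43) and MACF1 (0.24) among plakins, SYNM (0.37), LMNB1 (0.29), INA (0.24) and LMNB2 (0.23) among filament genes, SFN (0.21), TCHP (0.19), FAM83H (0.17) and AHNAK (0.17) among keratin-binding genes, and ELF3 (0.54), KLF5 (0.48), KLF4 (0.40) and CEBPB (0.39) among the factors. Of the marker genes, CDH1 was higher by 0.49, EPCAM by 0.76, LUM by 0.55 and LAMP3 by 0.46, while ABCA3 (-0.18) and TEK (-0.14) were lower. VIM differed by 0.07 and was not called.

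**Figure D4:**
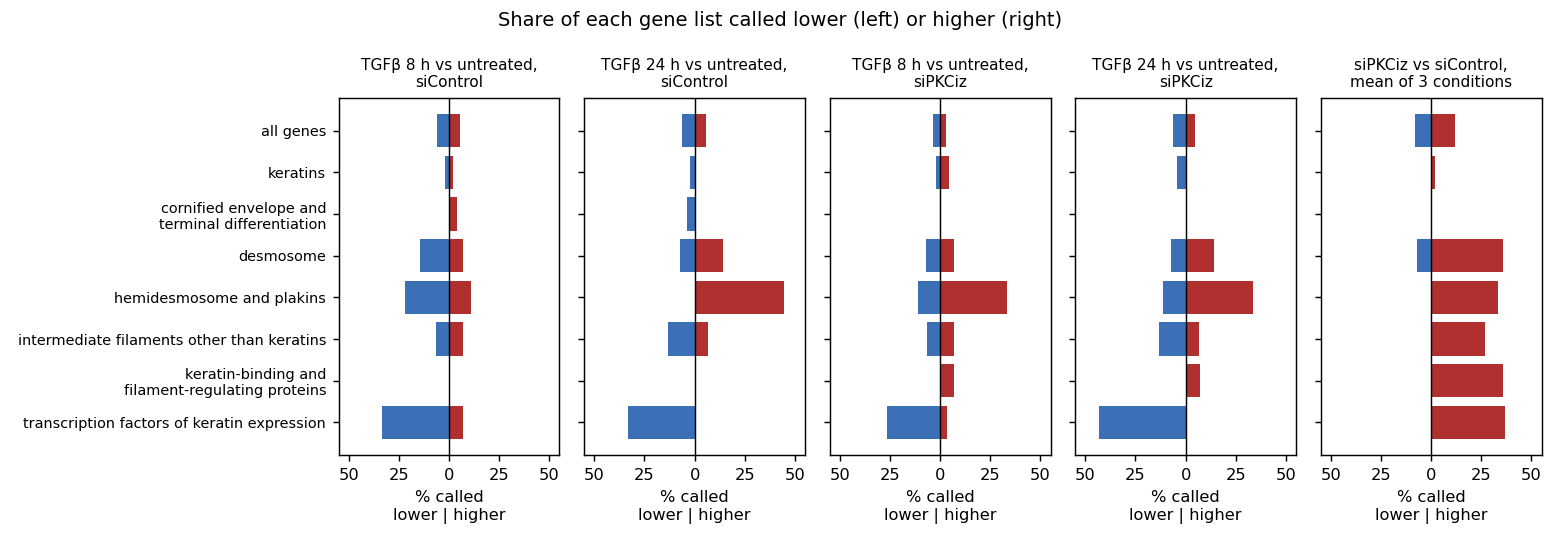
Percentage of genes called lower and higher (bars) among all 18377 genes, the 48 keratins and the 6 related gene lists, in the 4 TGFβ comparisons and the siPKCiz against siControl comparison on the mean of 3 conditions. The keratins were called in at most 6.25% of members in any panel, and the transcription factors have the longest bars toward lower with TGFβ.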

How the data were processed

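The authors deposited RMA intensities on a linear scale for 18 arrays, 6 groups of 3 biological replicates. RMA and Partek are named in the submitters' processing notes; their versions are not given in the sources used here, nor is the genome build of the probe sets. Array precision is limited by the number of arrays. Of 28869 probe sets, 19310 had 1 gene symbol in the platform annotation, 1752 several and 7807 none. The brightest probe set per symbol by its mean over all arrays gave 18377 genes, and 933 probe sets were left out.

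Log2 of the deposited intensities entered a linear model of 6 group means (limma 3.58.1, R 4.3.3), with contrasts moderated by eBayes without trend or robust options; 12 degrees of freedom were residual and 18.1 were total. Benjamini-Hochberg adjustment ran over all genes within each of 11 comparisons. Figures and motif searches used Python 3.11.15 with pandas 2.3.3 and matplotlib 3.10.9. The fit was tested on simulated data for the 24 h siControl comparison over 18377 genes. It recovered 100% of changes of 1 in log2 and 80% of changes of 0.5, and 7.69% of the calls were false. The simulated noise was independent between arrays and held no replicate structure. Changes below 0.5, the size of several keratin calls, were not simulated.

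KRT7, KRT8, KRT18 and KRT19 and every called keratin were named, as were up to 4 called genes per list with the largest change in a comparison. Other keratins were named after their values were seen. On the mean of the conditions DSC2 was added as the desmosome gene called lower. The keratins and lists were chosen with earlier results of these data known. Alternatives were quantile normalization, median centring, a filter on dim genes, trend and robust moderation, every probe set, the replicate number as a block, and omission of single arrays or of all arrays with 1 replicate number.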

Additional observations from a re-analysis of the deposited data

How the results depend on the processing

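Of 66 counts of called keratins under the 6 alternatives, 63 stayed within 1.5 times the reported count. This rule is coarse, because the reported counts were only 0 to 3 and several were 0. It passes 2 keratins in place of 3 at 8 h in siPKCiz with the replicate number as a block. With the replicate number as a block, 1 keratin (KRT19) in place of 2 was called at 8 h in siControl. Same-numbered deviations showed no general positive pairing of the samples: their 45 correlations ran from -0.514 to 0.258, and 7 were over 0.1. In replicate 1, most pairs of arrays between the arms deviated in opposite directions. There siControl 24 h gave -0.514, -0.393 and -0.335 with siPKCiz 8 h, untreated and 24 h. The pair of 8 h arrays gave -0.278 and the pair of untreated arrays 0.019. Called counts still moved with the number left out, as given below. Whether the numbers mark a shared step of the experiment was not tested. On the mean of the conditions, siPKCiz against siControl gave 2 keratins with the filter on dim genes (KRT19 and KRT7) and 2 with quantile normalization (KRT19 and KRT222, named after its values were seen), in place of 1. Of 178 values of the reported gene changes, 173 kept their direction and their side of the threshold, and the remaining 5 kept their direction. The calls lost were those of KRT7 at 8 h in siControl (0.27, adjusted p = 0.0607 by limma) and KRT34 at 8 h in siPKCiz (0.37, 0.0564) with the block, and of KRT19 at 8 h in siPKCiz with median centring (-0.39, 0.0538). KRT7 gained a call at 24 h in siPKCiz with quantile normalization (0.27, 0.0347) and on the mean of the conditions with the dim filter (0.12, 0.0476). The cause of these lost and gained calls was not tested. With single arrays or 1 replicate number left out, the count of called keratins ran from 0 to 2 at 8 h and from 1 to 2 at 24 h in siControl, from 0 to 4 at 8 h and from 1 to 2 at 24 h in siPKCiz, and from 0 to 1 for 24 h against 8 h in siControl. For siPKCiz against siControl it ran from 0 to 1 untreated, was 0 at 8 h throughout, and ran from 0 to 2 at 24 h and from 0 to 4 on the mean. The count on the mean was 0 without replicate 2 or 3 of every group and 4 without replicate 1 (KRT19, KRT222, KRT33B and KRT80). It was 0 in both interactions throughout. The all-gene counts that stand beside these moved as well with arrays or a replicate number left out. They ran from 681 to 2917 (8 h) and 755 to 2872 (24 h) in siControl, 323 to 1123 (8 h) and 780 to 1737 (24 h) in siPKCiz, 11 to 670 for 24 h against 8 h in siControl, and 837 to 5774 for the silencing on the mean. The KRT19 interaction at 8 h ran from -0.040, without siControl 8 h replicate 3, to 0.16, and the KRT4 change at 24 h in siControl from -0.45 to 0.025, the latter without 24 h replicate 1; neither was called. Changes of the 32 keratins below the array median on every array rest on dim signals.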
